A study of Mus musculus with 4 samples.

Results

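Genes of the ciliated airway cell were measured in whole lungs of mouse embryos that misexpress Nmyc. The genes are Foxj1, Rfx3, Tekt1, Rsph1, Mns1, Lrrc23, Tppp3, Mlf1 and Spa17, chosen by exact gene symbol in the array's annotation, and all 9 were found among 12393 measured genes. Each was read by 1 probe set, 9 of 20380 probe sets with a single symbol. The 4 Affymetrix arrays were hybridised with RNA of 2 wildtype lungs and 2 sftpc-nmyc lungs, the latter carrying mouse Nmyc1 (now Mycn) fused to EGFP under 3.7 kb of the human SFTPC promoter, which acts in distal lung epithelium. Whether ciliated cells carried the fusion protein was not measured. Titles give embryonic day 18 for all samples. The design text gives day 18.5 for the transgenic embryos, which came from injected C57BL/6J and DBA/2J F2 eggs so that each founder has its own insertion, and gives no strain or finer age for the wildtype. Duplicates are biological replicates per that text. The comparison asks what misexpressed Nmyc changes in the lung, and its precision is limited by the number of arrays.

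Ciliated cells move mucus along the conducting airways with bundles of motile cilia. They arise from airway progenitors when multiciliation regulators switch on FOXJ1 and factors of the RFX family, which then activate the genes for the axoneme, the microtubule core of the cilium. The axoneme holds outer doublet microtubules, dynein arms that slide them, and radial spokes that control the dyneins. RFX proteins bind the X-box, a sequence with GTTGCC as 1 of its arms, and FOXJ1 binds forkhead motifs such as TGTTTA.

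That sequence arm stands upstream of a transcript start in several of these genes. A RefSeq table of promoters (GRCm38.p6) held 6 of the 9 genes with 8 transcript starts. The 250 bases before each start were searched on both strands for GTTGCC and for TGTTTA, so that the reverse complement of either also counts. GTTGCC was present at 4 of the 6 genes (66.7%), against 11.8% of all 27025 genes in the table. It was present at 22.1% of 86 genes from 8 wider cilium lists and at 9.62% of 156 genes from lists of other cell types and of the cell cycle. TGTTTA was present at 1 of the 6, and at 13.5% of all genes. Its share was 9.3% in the 86 genes of the cilium lists and 10.3% in the 156 genes of the other lists. The 4 promoters with GTTGCC follow in the direction of the gene, with both motifs in capitals, because they show how near the starts the RFX arm lies and what flanks it.
Lrrc23, chr6:124779728-124779977, minus strand: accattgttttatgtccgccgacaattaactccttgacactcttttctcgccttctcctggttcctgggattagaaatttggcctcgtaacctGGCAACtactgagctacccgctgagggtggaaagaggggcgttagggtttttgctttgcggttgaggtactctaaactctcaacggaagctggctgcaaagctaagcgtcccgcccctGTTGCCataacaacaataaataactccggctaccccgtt
Tekt1, chr11:72361883-72362132, minus strand: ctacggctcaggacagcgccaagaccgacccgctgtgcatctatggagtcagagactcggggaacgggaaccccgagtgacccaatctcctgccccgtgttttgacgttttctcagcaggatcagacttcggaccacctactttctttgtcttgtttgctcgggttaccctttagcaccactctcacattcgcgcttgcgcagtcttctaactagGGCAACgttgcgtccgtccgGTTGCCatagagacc
Mns1, chr9:72438279-72438528, plus strand: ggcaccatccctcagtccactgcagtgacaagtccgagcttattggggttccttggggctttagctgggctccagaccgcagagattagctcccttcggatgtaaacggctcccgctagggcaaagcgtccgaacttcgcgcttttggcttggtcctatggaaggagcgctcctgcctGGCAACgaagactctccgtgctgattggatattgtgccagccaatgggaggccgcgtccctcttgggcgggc
Mlf1, chr3:67373847-67374096, plus strand: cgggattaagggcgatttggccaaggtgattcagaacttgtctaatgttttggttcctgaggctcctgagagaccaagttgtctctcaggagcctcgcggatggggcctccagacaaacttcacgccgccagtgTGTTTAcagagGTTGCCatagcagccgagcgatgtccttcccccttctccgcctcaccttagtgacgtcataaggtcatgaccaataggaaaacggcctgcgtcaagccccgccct
In Lrrc23, 1 match ended 34 bases before the start and the other 152 bases before it. In Tekt1, one match ended 30 and the other 10 bases before the start, while the other Tekt1 start had no match. The Mns1 match ended 67 bases before the start. In Mlf1 the RFX arm ended 100 bases before the start, with TGTTTA ending 111 bases before it. The searched windows of Rfx3 and Spa17 held neither motif. The printed windows of Lrrc23, Tekt1 and Mns1 lie before the start used but inside the annotated span of the gene. A match is a description of these letters only.

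**Figure D1:**
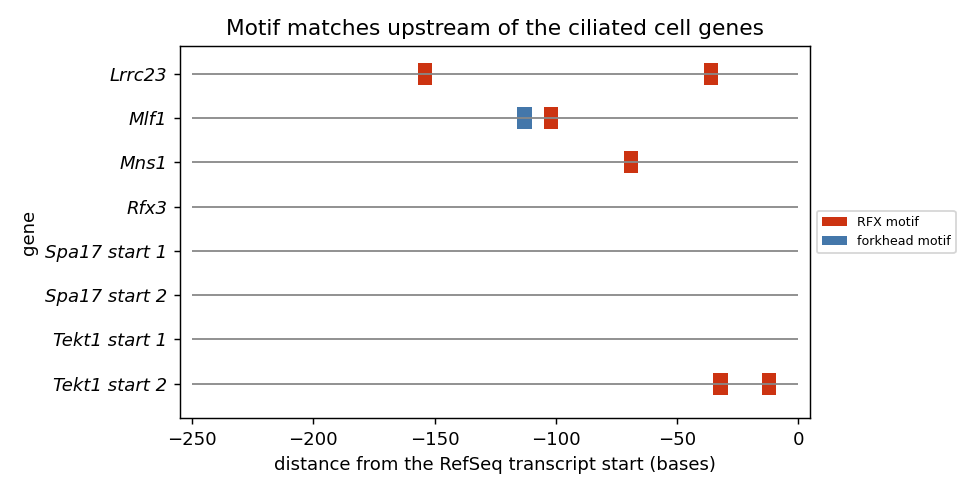
Positions of GTTGCC (red) and TGTTTA (blue), either strand, in the 250 bases before each of 8 RefSeq transcript starts of 6 ciliated cell genes, with distance from the start in bases on the horizontal axis. Matches to GTTGCC fall upstream of the Lrrc23, Mlf1 and Mns1 starts and of 1 of 2 Tekt1 starts.

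Of the 8 ciliated cell genes that could be tested, Rsph1 was higher in the transgenic lungs and 7 did not pass, with log2 fold changes from -0.31 to 0.75. Foxj1, the regulator of the group, differed by 0.07 ± 0.15 (log2, SE, n = 2 per group). Signals are deposited array units, and fold changes are log2 differences, sftpc-nmyc minus wildtype, of quantile-normalized log2(value + 5), which understates the change of dim genes. Rfx3 was too dim for the fit over genes, and is tested in a fit over all probe sets only. A call is an adjusted p under 0.05 (Benjamini-Hochberg over 8675 genes, limma). Of all genes tested 30.4% were called, 14.7% higher and 15.7% lower, so 1 of 8 is not above the background. In whole lung, fewer cells of a type and less RNA per cell cannot be told apart. The brightest of 27 Bacillus control probe sets reached 73.4, which serves as a guide to background. On every array 5 of the 9 genes lay above it (Foxj1, Rsph1, Tppp3, Lrrc23 and Mlf1) and 3 lay below it (Tekt1, Mns1 and Rfx3), while Spa17 lay on either side.

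**Figure D2:**
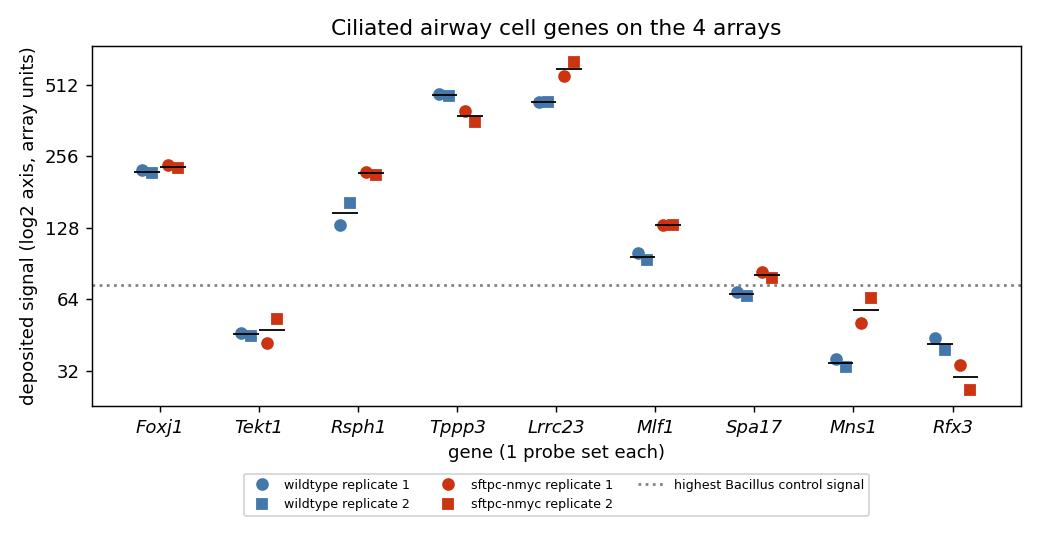
Deposited signal (log2 axis, array units) of the 9 ciliated cell genes on 2 wildtype (blue) and 2 sftpc-nmyc (red) arrays, with group means as black lines and the highest Bacillus control signal of 73.4 dotted. Foxj1 sits at nearly the same level on all 4 arrays, Rsph1, Lrrc23, Mlf1, Spa17 and Mns1 are higher in both transgenic lungs, and Tppp3 and Rfx3 are lower in both. Levels of different probe sets are not comparable.

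Foxj1, the forkhead factor that commands the motile cilium program, was read at 224.3 and 217.0 in wildtype and at 235.3 and 227.7 in sftpc-nmyc lungs. The group means were 221 ± 5.16 and 232 ± 5.37 (SD, n = 2), so the groups did not overlap but lay close together. Its log2 fold change was 0.07 ± 0.15 (SE), which did not pass (limma adjusted p = 0.77). The 95% interval of the difference, -0.28 to 0.41, excludes a log2 change of 1 in either direction. Foxj1 did not pass under any of 12 alternative settings, where its log2 fold change ran from 0.04 to 0.09 (limma adjusted p = 0.75 to 0.90). The genes with the values most like those of Foxj1 over the 4 arrays, by mean absolute difference of centred log2 values, were Cebpb (0.0057), Txndc17 (0.0077), Mfsd6 (0.012), Nipa2 (0.012) and Fbxw5 (0.013). Such likeness is common in 4 arrays, since 1120 genes lay within 0.1 of Foxj1.

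Rfx3, the member that binds the X-box and acts with FOXJ1 on ciliary genes, was dim, at 43.9 and 39.2 in wildtype and 33.8 and 26.6 in sftpc-nmyc lungs. Both transgenic values were below both wildtype values, and all lay under the Bacillus guide. In the fit over 20380 probe sets its log2 fold change was -0.31 ± 0.30 (SE), which did not pass (limma adjusted p = 0.56, 95% interval -1.08 to 0.45). The intervals of both regulators include 0, and that of Rfx3 is too wide to leave out a change of 2-fold downwards.

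The axonemal members were read at higher signals in sftpc-nmyc lungs, except Tekt1. Rsph1, a protein of the radial spoke head, was read at 131.1 and 163.4 in wildtype and at 220.2 and 214.2 in sftpc-nmyc lungs, with no overlap. Rsph1 rose by 0.55 ± 0.17 (log2, SE), or 1.46-fold, with a 95% interval of 0.15 to 0.95 (limma adjusted p = 0.047). This call is marginal: it ended when any 1 of the 4 arrays was left out, at log2 fold changes of 0.39 without wildtype replicate 1, 0.72 without wildtype replicate 2, 0.53 without sftpc-nmyc replicate 1 and 0.57 without sftpc-nmyc replicate 2 (limma adjusted p = 0.20, 0.057, 0.14 and 0.13). In the fit over all probe sets, where 12.9% were called, Rsph1 did not pass either (limma adjusted p = 0.092), nor did any of the other 8 members. Without adjustment 5 of the 9 had a p under 0.05 there, against 29.3% of all probe sets.

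Lrrc23, another radial spoke protein, was steady in wildtype at 435.1 and 435.6 and was read at 558.4 and 637.5 in sftpc-nmyc lungs. Its log2 fold change of 0.42 ± 0.14 (SE; 95% interval 0.10 to 0.75) missed the threshold (limma adjusted p = 0.052), so Lrrc23 and Rsph1 lie on either side of it with similar values. Mns1, a protein inside the doublet microtubules, was read at 35.9 and 33.3 in wildtype and at 50.7 and 64.9 in sftpc-nmyc lungs. It had the highest log2 fold change of the 9 genes, 0.75 ± 0.27 (SE; 95% interval 0.12 to 1.38), without passing (limma adjusted p = 0.071), and all of its signals lay under the Bacillus guide. Tekt1, a tektin filament protein of the doublets, was read at 46.4 and 44.8 in wildtype and at 42.0 and 53.1 in sftpc-nmyc lungs, so that the transgenic values spanned the wildtype ones. Its log2 fold change was 0.14 ± 0.26 (SE; 95% interval -0.48 to 0.75; limma adjusted p = 0.73).

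Of the 3 members outside the core axoneme, 2 were read higher and 1 lower, and none passed. Mlf1, named for myeloid leukaemia and abundant in ciliated cells, was read at 100.2 and 93.7 in wildtype and at 131.1 and 131.5 in sftpc-nmyc lungs. Its log2 fold change was 0.44 ± 0.17 (SE; 95% interval 0.05 to 0.84; limma adjusted p = 0.087), and its groups did not overlap. Mlf1 is also expressed in heart muscle, and 11 of 13 tested cardiac genes were lower and none higher in sftpc-nmyc lungs, with a summed signal over 18 genes of 4350 and 2775 in wildtype and 818 and 1109 in sftpc-nmyc, and none listed at 0. The part of heart muscle in the Mlf1 reading was not tested. Spa17, a sperm protein also found in motile cilia, was read at 68.6 and 66.4 in wildtype and at 83.6 and 78.5 in sftpc-nmyc lungs (log2 fold change 0.30 ± 0.20, SE; limma adjusted p = 0.29).

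Tppp3, a tubulin-binding protein that bundles microtubules, was the member with the clearest reading in the other direction. Its signals were 470.4 and 457.7 in wildtype and 399.1 and 356.0 in sftpc-nmyc lungs, with no overlap. The log2 fold change was -0.31 ± 0.14 (SE; 95% interval -0.63 to 0.01), which did not pass (limma adjusted p = 0.13). Tppp3 is also expressed in connective tissue cells, and of 14 tested genes of fibroblasts and mesenchyme 12 were lower, with none higher. Their summed signal over 15 genes was 33452 and 35486 in wildtype against 21107 and 19418 in sftpc-nmyc lungs, with none listed at 0, and the part of those cells in the Tppp3 reading was not tested.

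**Figure D3:**
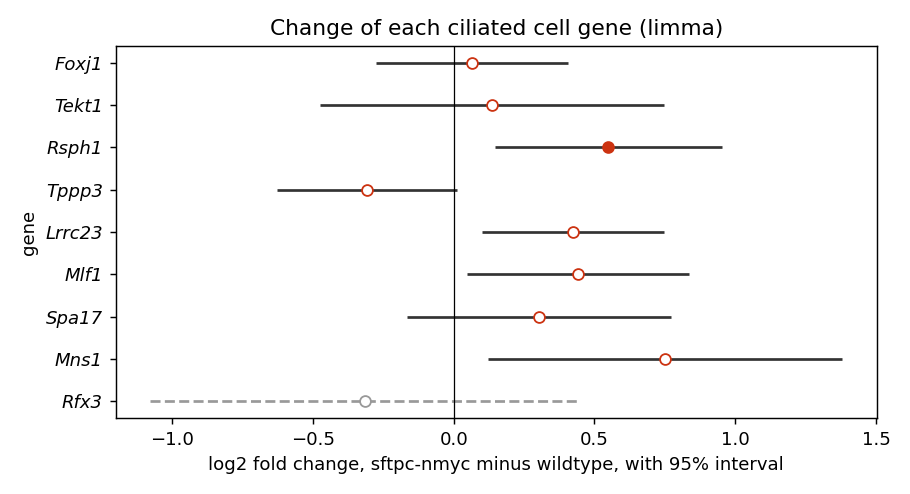
Log2 fold change of each ciliated cell gene, sftpc-nmyc minus wildtype, with its 95% interval from limma (n = 2 per group). The filled point is Rsph1, the member past the threshold; the dashed grey line is Rfx3, from the fit over all probe sets; Foxj1 and Tekt1 lie near 0.

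Across the members tested, 7 of 8 had a log2 fold change above 0, against 48.5% of all genes tested, and they ran from -0.31 (Tppp3) to 0.75 (Mns1). Their median was 0.36, and that of all genes tested -0.02. Per array, the median of their centred log2 values was -0.16 and -0.13 in wildtype and 0.15 and 0.20 in sftpc-nmyc lungs. In deposited signals 6 of the 9 members were higher and 2 lower without overlap, while Tekt1 overlapped. After normalization 7 were higher and 2 lower without overlap, and of all probe sets 57.7% did not overlap (28.4% higher, 29.4% lower). Beside these readings, 20 of 20 tested S phase genes were higher in sftpc-nmyc lungs (summed signal 3867 and 2757 in wildtype, 9573 and 10658 in sftpc-nmyc). General epithelial genes were higher in 10 of 19 tested with none lower (median 0.48), and their summed signal over 20 genes was 9413 and 10087 in wildtype and 14009 and 13862 in sftpc-nmyc lungs. No gene of either list was listed at 0, and the part of cell division or of the epithelial share in the ciliated readings was not tested.

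The cilium as a whole was read through 8 wider lists of genes, apart from the 9 members, with 82 genes tested. Of these 10 were higher and 1 lower in sftpc-nmyc lungs, with 71 not called and a median log2 fold change of 0.24. Over all genes tested 14.7% were higher and 15.7% lower, so 10 of 82 is not above the background. The count was lower in every fit that left out 1 array. The median log2 fold change was then 0.22 without wildtype replicate 1 and 0.21 without wildtype replicate 2. It was 0.29 without sftpc-nmyc replicate 1 and 0.19 without sftpc-nmyc replicate 2. Of the 103 genes measured, 21 were left out as dim, among them the X-box factors Rfx1 and Rfx2.

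Regulators and centriole genes held 5 of the 10 rises, a share that was not tested against the other cilium lists. Among regulators of multiciliated cells 2 of 8 rose and none fell (median 0.58). Myb, a factor for multiciliation and for blood progenitors, went from 68.9 and 116.9 to 186.3 and 219.1, rising by 1.16 ± 0.26 (log2, SE; limma adjusted p = 0.013), measured by a probe set of possible cross-hybridisation, a call lost without wildtype replicate 1 (0.77, limma adjusted p = 0.052) or sftpc-nmyc replicate 2 (1.04, limma adjusted p = 0.058). Tfdp1, the dimer partner of E2F factors, rose by 1.05 ± 0.22 (limma adjusted p = 0.0098), lost without wildtype replicate 2 (0.74, limma adjusted p = 0.061). Both factors also act in dividing cells. Foxn4, a forkhead factor of multiciliated cells, was read at 72.3 and 45.1 in wildtype and at 85.2 and 122.3 in sftpc-nmyc without passing (0.83 ± 0.27, limma adjusted p = 0.053). Foxn4 did pass without wildtype replicate 1 (1.14, limma adjusted p = 0.044) and with an offset of 32 (0.62, limma adjusted p = 0.0499), and stood at 0.54 without wildtype replicate 2.

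In the centriole and basal body list 3 of 15 rose and none fell (median 0.39). Plk4, the kinase that starts a new centriole in cycling and in multiciliated cells, went from 101.6 and 81.3 to 205.5 and 267.7. Plk4 rose by 1.34 ± 0.20 (log2, SE; limma adjusted p = 0.0025) and was called in every fit that left out 1 array. Cetn3, a centrin, rose by 0.71 ± 0.15 (limma adjusted p = 0.010), lost without wildtype replicate 1 (0.63, limma adjusted p = 0.063). Odf2, an appendage protein of the mother centriole, rose by 0.57 ± 0.18 (limma adjusted p = 0.043), lost without wildtype replicate 2 (0.39) or either transgenic replicate (0.63 and 0.51).

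In the list of dynein arms, the motors of motile cilia, and of the proteins that dock and assemble them, 2 of 9 genes rose (median 0.17), and neither encodes a dynein chain. Ccdc114, which docks outer dynein arms on the doublets, was read at 32 and 36.7 in wildtype and at 71.0 and 80.6 in sftpc-nmyc lungs. Its wildtype signals, like those of Zmynd10 (46.7 and 53.8) and Meig1 (38.3 and 35.9), lay under the Bacillus guide of 73.4, so the sizes of these rises are uncertain. Ccdc114 rose by 1.12 ± 0.26 (log2, SE; limma adjusted p = 0.014), lost without sftpc-nmyc replicate 1 (1.17, limma adjusted p = 0.056) or replicate 2 (1.05, limma adjusted p = 0.087). Zmynd10, a cytoplasmic factor that assembles the arms, rose by 0.88 ± 0.23 (limma adjusted p = 0.023), lost without wildtype replicate 1 (0.76) or either transgenic replicate (0.75 and 0.98). Dnah5, a heavy chain of the outer arm named outside the rule, was read at 63.9 and 34.2 in wildtype and at 34.9 and 33.6 in sftpc-nmyc (-0.32, limma adjusted p = 0.51). Dynlt1f, measured for the list symbol Dynlt1, was read at 47.3 and 29.5 in wildtype and at 54.8 and 66.9 in sftpc-nmyc (0.72 ± 0.29, limma adjusted p = 0.10). Its probe set is one of possible cross-hybridisation. All signals of Dnah5 and Dynlt1f lay under the Bacillus guide, so the readings of these genes say little about dynein chains. Dnal4, of the same list but outside the rule, lay above the guide on every array. It was read at 138 and 139.4 in wildtype and at 140.7 and 171.4 in sftpc-nmyc (0.17, limma adjusted p = 0.49). Dnah8, also outside the rule, lay above it except on sftpc-nmyc replicate 1. Its signals were 96.9 and 81.3 in wildtype and 49.1 and 90.3 in sftpc-nmyc (-0.33, limma adjusted p = 0.40).

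Radial spoke, central pair and nexin genes had none called among 10 (median 0.15). Rsph9, another spoke head protein named outside the rule, was read at 85.1 and 103.2 in wildtype and at 78.2 and 96.4 in sftpc-nmyc (-0.07, limma adjusted p = 0.84). Gas8, a nexin link subunit, stood at 0.78 ± 0.29 (limma adjusted p = 0.082). Its signals, 39.8 and 30.4 in wildtype and 48.2 and 71.7 in sftpc-nmyc, all lay under the Bacillus guide of 73.4. Among tektins, tubulin partners and inner proteins 1 of 6 rose and 1 fell. Meig1, known from sperm, rose by 0.98 ± 0.25 (limma adjusted p = 0.020), a call lost whichever array was left out (0.87 to 1.07). Tuba1a, an alpha tubulin that many cell types use, fell by 0.71 on the log2 scale (SE 0.21, limma adjusted p = 0.036), a call lost without wildtype replicate 1 (-0.40) or sftpc-nmyc replicate 1 (-0.51). Its probe set carries the suffix of possible cross-hybridisation, so other tubulins may be read with it.

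Transport and gate genes, which primary cilia share, were mostly not called. In intraflagellar transport, the train that builds cilia, 1 of 20 rose (median 0.19): Ift22 by 0.67 ± 0.21 (log2, SE; limma adjusted p = 0.045), lost without either wildtype replicate (0.70 and 0.66) or sftpc-nmyc replicate 2 (0.40). In the BBSome and transition zone 1 of 11 rose (median 0.24): B9d1, a transition zone protein, by 0.58 ± 0.17 (limma adjusted p = 0.036), lost whichever array was left out (0.54 to 0.63). Of 30 further airway ciliated cell markers only 3 were measured, and none was called. All 3 had negative log2 fold changes, at -0.58 for Tctex1d4, -0.54 for Aldh3b1 and -0.15 for Lrrc51, the last named outside the rule. Aldh3b1 stood at -0.25 without wildtype replicate 1 and at -0.83 without wildtype replicate 2. Both transgenic signals of Tctex1d4 (41.8 and 48.3) and of Aldh3b1 (51.3 and 54) lay under the Bacillus guide of 73.4, so the sizes of these differences are uncertain. No other marker of that list was measured.

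The other epithelial lists were read beside the ciliated one. Among club and airway secretory genes, the neighbours of ciliated cells in the airway, 5 of 12 were lower and 4 higher (median -0.21), and their summed signal over 16 genes was 24135 and 22305 in wildtype and 18114 and 14243 in sftpc-nmyc lungs. Scgb3a2, Hp and Cbr2 fell, at log2 fold changes of -0.61, -0.94 and -1.16 (limma adjusted p = 0.0019, 0.0036 and 0.0042). Scgb3a1, named outside the rule, fell from 775 and 177.5 to 91.7 and 73.4 (-2.11, limma adjusted p = 0.024). Gsta4, a glutathione transferase, went from 228.3 and 181.4 to 562.6 and 637.3 and rose by 1.51 ± 0.17 (log2, SE; limma adjusted p = 0.00084). Sox2, Krt15 and Upk3a, named outside the rule, rose too. Scgb1a1, the secretoglobin that defines club cells, went from 5379 and 6315 to 3903 and 1324. Its log2 fold change was -1.58 ± 0.37 (SE; limma adjusted p = 0.015), and it did not pass in the fit over probe sets (limma adjusted p = 0.088). Neuroendocrine genes were lower in 1 of 4 tested with none higher, and 7 more were left out as dim. The 2 basal genes tested, Pdpn and Snai2, were both lower, and Pdpn is also counted in the alveolar type I list. The other 5 basal genes measured (Trp63, Krt5, Krt14, Ngfr and Aqp3) were left out as dim. Alveolar type II genes, which mark surfactant cells, were lower in 19 of 20 (median -2.65), and alveolar type I genes in 12 of 15 (median -1.03), with none higher in either. The medians of these lists were not tested against that of the ciliated genes.

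**Figure D4:**
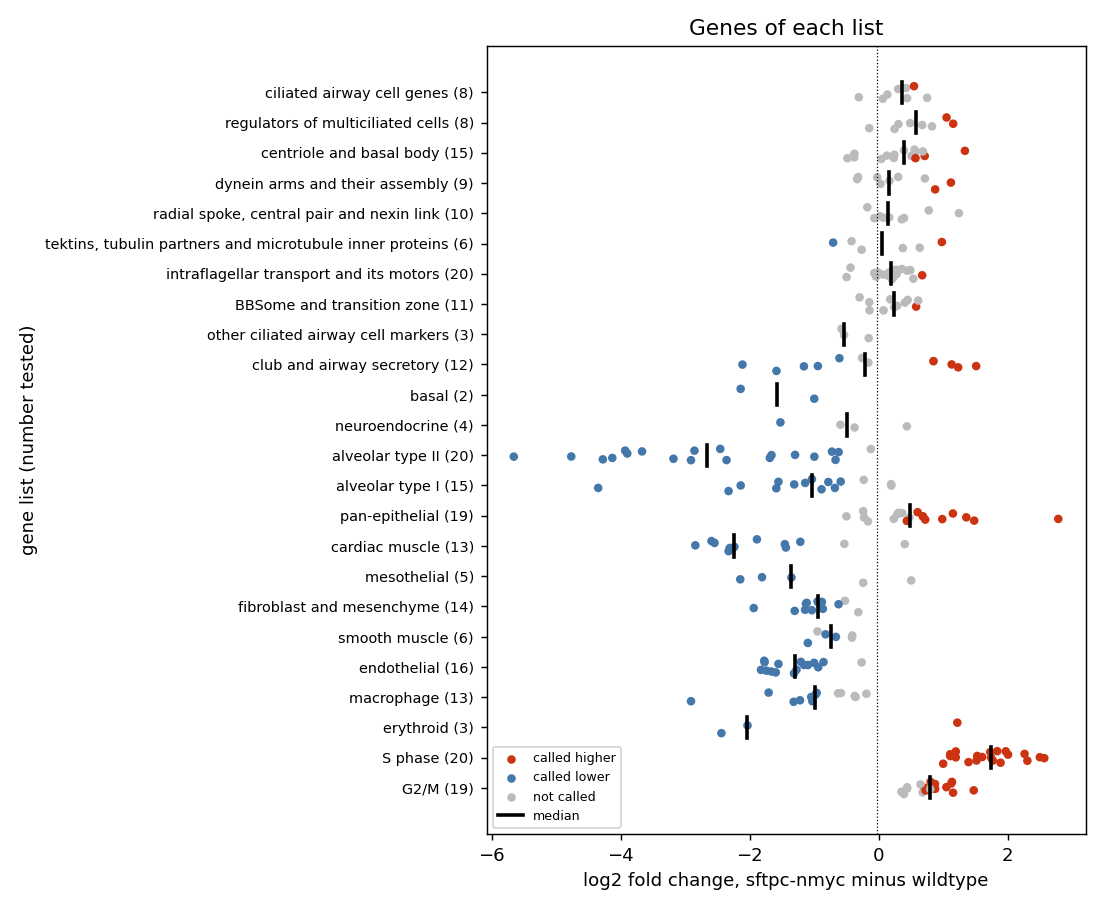
Log2 fold change, sftpc-nmyc minus wildtype, of each tested gene in 24 lists, coloured by limma call, with list medians as black bars and the median of all genes (-0.02) dotted. The ciliated cell genes and the 8 cilium lists have medians from -0.54 to 0.58, while alveolar type II (-2.65) and cardiac (-2.24) genes lie far below and S phase genes (1.74) far above.

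The groups differed in their signals at the misexpressed gene, not all in 1 direction, and also in sex-linked signals. Of 3 Mycn probe sets, 1 was read at 34.7 and 32.1 in wildtype and at 455.2 and 356.0 in sftpc-nmyc lungs. Another fell from 78.7 and 63.5 to 25.1 and 27.2 (limma adjusted p = 0.048 in the fit over probe sets). The third, at 57.3 and 18.8 in wildtype and at 61.8 and 43.8 in sftpc-nmyc, did not pass there (limma adjusted p = 0.47). Xist, transcribed from the inactive X of females, was read at 1708 and 1506 in wildtype and at 59.3 and 63.9 in sftpc-nmyc lungs. Sex and genotype cannot be told apart for the ciliated cell genes.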

How the data were processed

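The labels' protocols name an RNeasy kit for whole-lung RNA and Affymetrix labelling. The authors' deposited table gives linear intensities of 22690 probe sets on 4 arrays. How they were computed and scaled is not given in the sources used here. Values were floored at 1, 5 was added, and the log2 values were quantile normalized without 64 control probe sets. The brightest of a gene's probe sets stood for it, and genes with a mean under the 30th percentile were left out, leaving 8675 of 12393. Symbols came from the platform annotation, with list symbols looked up through RefSeq synonyms. Limma 3.58.1 (R 4.3.3; variance trend on mean, group as the only term) was run over genes and over 20380 probe sets, with the code tested on simulated data. The members and lists were chosen with earlier results of these data known. All members were named. The rule for the lists was up to 4 called genes and 2 others with the largest statistics of each list. Not every gene under that rule was named, and some genes outside it were. Scgb1a1 and Mycn served as checks. Alternatives changed the offset, normalization, filter, variance prior, probe set rule, block and arrays. The number of arrays limits precision.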

Additional observations from a re-analysis of the deposited data

How the results depend on the processing

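All 8 members tested over genes kept the direction of their change under every alternative in which they were tested. The number of members called was 1 with an offset of 1 or 32. It was 2 with no further normalization and with a 50th percentile filter (Lrrc23 and Rsph1), 3 with the mean of a gene's probe sets (Lrrc23, Mns1 and Rsph1), 0 with no filter on dim genes and 0 whichever array was left out. Without a trend in the variance prior it was 1, then Mns1 in place of Rsph1. Without that trend Rsph1 stood at a limma adjusted p of 0.069, and with no filter at 0.082. In the fit over probe sets none was called under any alternative run, although 5 of the 9 had an unadjusted limma p under 0.05. That says little for the fits without 1 array, where 0 of all 20380 probe sets were called, against 2638 with all 4 arrays and 337 without the variance trend. The members' median was 0.29 with an offset of 32, 0.33 with no further normalization, 0.30 with no filter or with the mean of probe sets, 0.42 with the 50th percentile filter, and 0.32 to 0.35 without 1 array. In the cilium lists the number of higher genes, 10 with all arrays, was 6 with no filter (5 of them among the 10), 13 with the mean of probe sets (all 10 among them), 10 without the variance trend (8 of them the same) and 4 to 7 without 1 array (3 to 5 of them the same). Genes called over all tested went from 2636 to between 1379 and 1906 without 1 array. The replicate numbers could not be shown to pair the lungs (correlation of deviations -0.04 over genes). With the replicate number as a block, 0 members were called, the median was 0.36 and 7 cilium genes were higher.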
